A study of Mus musculus with 18 samples.

Results

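The rod phototransduction genes described here are 9 named genes of the rod photoreceptor: Gnat1, Pde6a, Pde6b, Pde6g, Cnga1, Sag, Rcvrn, Nrl and Nr2e3. They were chosen by name and not by a measured value, but with earlier results of these data known. Summaries over the members were therefore given no p. All probe sets whose platform annotation names only 1 of these symbols were taken, which gave 9 probe sets for 8 of the 9 genes, of 34945 probe sets that name 1 gene in all (18193 genes). Pde6g had 2 probe sets and the other 7 genes 1 each. Nr2e3 was not analysed here.

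Retinas came from male C57BL6/J mice, 2 months old, whose eyes were injected into the vitreous at day 0 with BSS as the control, with dexamethasone (DEX) or with triamcinolone (TAA in the labels). They were taken at day 7 or day 30, which made 6 groups, each with 3 biological replicates measured on separate Affymetrix arrays. Every group was injected, so the comparisons are between injected eyes, and the labels give no dose and no retina without an injection. The deposited values are log2 values centred per probe set, so that its median array of the 18 sits at 0; a value of -0.20 therefore means lower than the median array on the log2 scale and says nothing of the level of the gene. For the same reason the presence of rods in each retina could not be checked from the level of rod markers, and no level can be compared between genes.

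Rods detect light with a cascade in the outer segment. The light-activated visual pigment switches on the G protein transducin, transducin lifts the inhibitory subunit from the phosphodiesterase, the enzyme breaks down cyclic GMP, and the channel that cyclic GMP holds open closes. Arrestin and recoverin act in the shut-off and adaptation of the pigment, and the transcription factors NRL and NR2E3 establish and keep the rod programme, NRL together with the homeodomain factor CRX.

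The start regions of the rod genes are shown because one member, Nrl, encodes a factor known to act on such genes, and its values can be set beside those of Sag, Cnga1 and Pde6b. RefSeq's table (GRCm38.p6, 250 bases before to 50 after an annotated start) held 5 of the 9 genes. In the sequences, capitals mark TAATCC or its reverse complement GGATTA, the core letters of CRX-type sites, and TGCTGA or its reverse complement TCAGCA, core letters of NRL-type sites; both strands were searched and the motifs do not overlap here. Sag is at chr1:87803430-87803729 on the plus strand, Cnga1 at chr5:72642703-72643002 on the minus strand and Pde6b at chr5:108388123-108388422 on the plus strand.
Sag: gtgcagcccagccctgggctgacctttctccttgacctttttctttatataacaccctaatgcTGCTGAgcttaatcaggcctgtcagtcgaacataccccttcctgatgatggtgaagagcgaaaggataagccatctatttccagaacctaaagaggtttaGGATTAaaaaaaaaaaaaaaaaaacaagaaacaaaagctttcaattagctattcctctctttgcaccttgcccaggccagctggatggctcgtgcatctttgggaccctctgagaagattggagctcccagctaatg
Cnga1: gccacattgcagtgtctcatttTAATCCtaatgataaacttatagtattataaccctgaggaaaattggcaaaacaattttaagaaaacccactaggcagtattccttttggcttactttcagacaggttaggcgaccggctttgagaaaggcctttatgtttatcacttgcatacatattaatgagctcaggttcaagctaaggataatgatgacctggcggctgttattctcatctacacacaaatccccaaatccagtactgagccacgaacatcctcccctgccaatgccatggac
Pde6b: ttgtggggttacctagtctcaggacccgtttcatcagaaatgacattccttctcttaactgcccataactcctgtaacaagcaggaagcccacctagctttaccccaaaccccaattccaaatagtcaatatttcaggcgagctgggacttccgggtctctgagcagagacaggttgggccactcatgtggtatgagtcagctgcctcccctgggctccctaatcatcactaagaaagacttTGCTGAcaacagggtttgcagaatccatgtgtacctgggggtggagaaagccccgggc

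The Sag window held both motifs, with GGATTA beginning 87 bases and TGCTGA 187 bases before the start. The Cnga1 window held TAATCC, 228 bases before the start, and the Pde6b window held TGCTGA, 8 bases before it. The windows of Nrl and Nr2e3 held neither of these letter runs. Over all 32851 windows of 300 bases in the table, 7.06% held the first motif, 19.5% the second and 1.36% both. The matches are given as a description only.

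Across the 18 arrays the rod transcripts varied little. Of the 162 values of the 9 probe sets, 141 lay within 0.2 of the median array, 19 were below -0.2 and 2 above 0.2. Within groups the median standard deviation was 0.116 for the 9 probe sets and 0.168 for all 34945. It was smallest for Cnga1 (0.0614), which encodes the pore-forming alpha subunit of the rod channel, and largest for Rcvrn (0.211), which encodes recoverin.

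A single array, TAA day 30 replicate 2, stood apart and held 7 of the 19 values below -0.2. On it 6 of the 8 genes were below -0.3, with Rcvrn at -0.79, Pde6b at -0.47, Sag at -0.44, Nrl at -0.42, Gnat1 at -0.36 and Pde6g at -0.35, while Cnga1 was at -0.07 and Pde6a at 0.01. The mean of the 8 genes was -0.36 there and between -0.13 and 0.04 on the other 17 arrays. Other rod genes were less low on it. The 14 other measured cascade genes had a mean of -0.12 (median -0.27), and the 13 outer segment and retinoid genes a mean of -0.10 (median -0.12). The array also had the widest spread over all probe sets (standard deviation 0.350, against 0.147 on the narrowest). Its ribosomal protein genes had a mean of -0.47 (12 of 17 listed genes measured, and -0.11 to 0.15 on the other 17 arrays). For the Actb control, the centred 3' value minus the centred 5' value was -0.459 (-0.167 to 0.137 on the others). As both values are centred, this does not tell which end had more signal. For the Gapdh control the same measure was -0.086, within the range of the others (-0.159 to 0.284). The part of these in the rod values was not tested, and results that rest on this array are given with and without it.

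**Figure D1:**
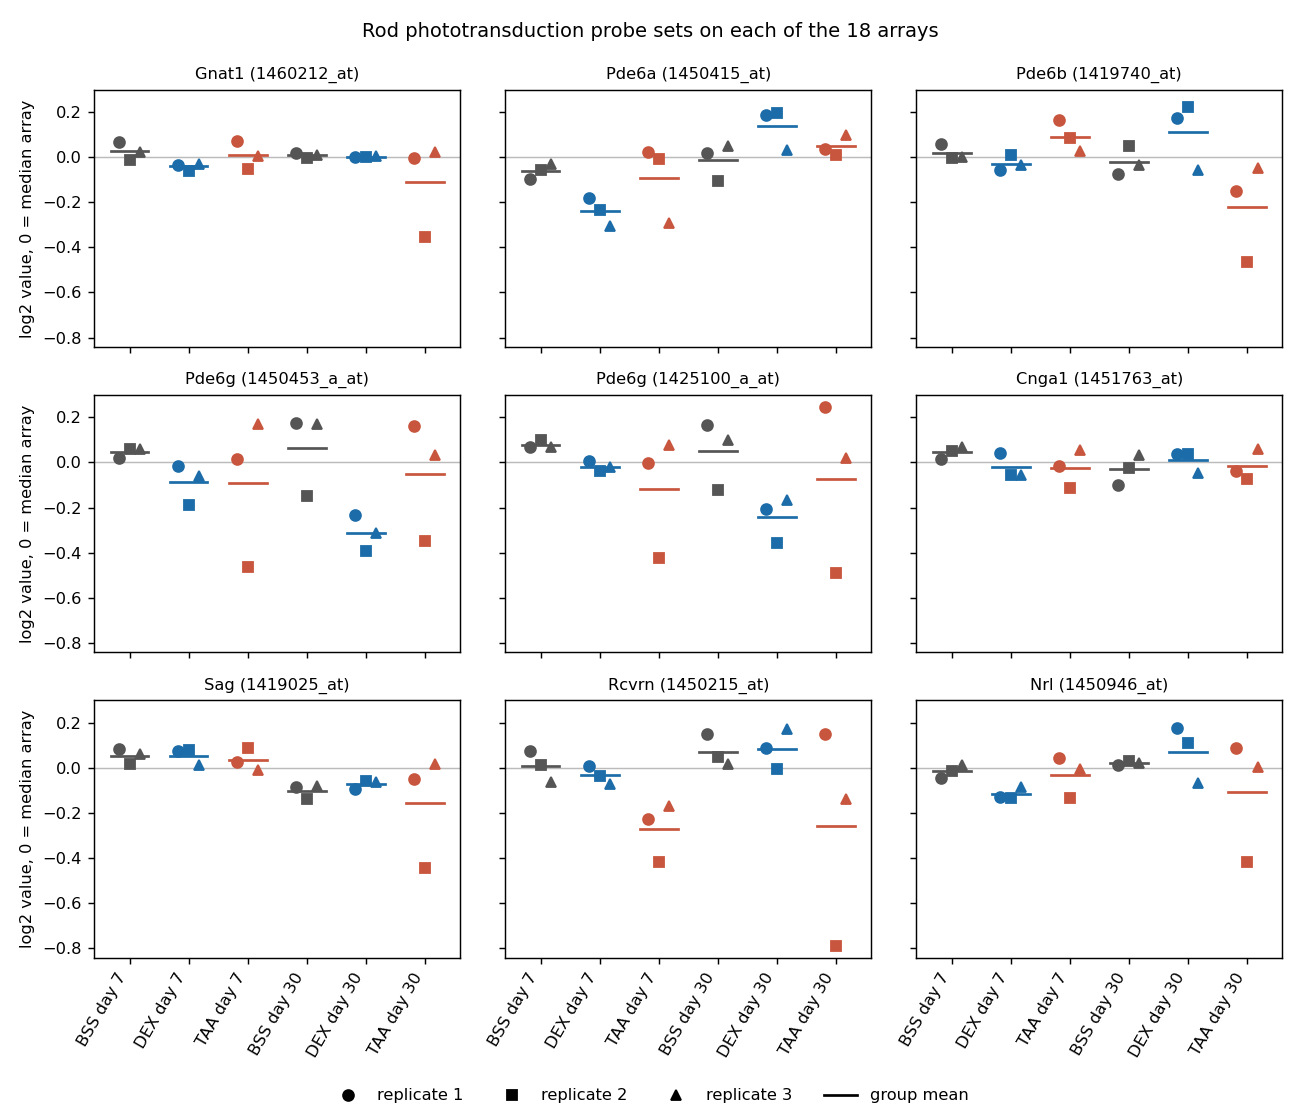
Log2 value of each of the 9 probe sets on each of the 18 arrays (vertical axis, with 0 the median array), by group (horizontal axis); symbols mark the replicate and bars the mean of 3 arrays. Most values lie within 0.2 of 0, TAA day 30 replicate 2 lies lowest for 6 of the 9 probe sets, and the 3 DEX day 30 arrays of Pde6g lie below the 3 BSS day 30 arrays.

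None of the 9 probe sets passed in any of the 9 comparisons, tested with limma over all 34945 probe sets with Benjamini-Hochberg adjustment at 0.05; the smallest adjusted p of a member was 0.141 (Pde6b, DEX against TAA at day 30). Few probe sets of any kind passed: the share called was 0% for DEX at day 7, 0.00286% for TAA at day 7 and 0% for each drug at day 30, all against BSS, 0% between the drugs at either day, 0.0143% between the days in BSS, and 0% for the change of either drug effect between the days. At an unadjusted p under 0.05, 1 member was called for DEX against BSS at day 30 (against 11.8% of all probe sets), 2 for DEX against TAA at day 30 (16.9%) and 1 for the change of the DEX effect (8.45%). The count of members was 0 for DEX and TAA at day 7 (3.41% and 3.83% of all), TAA at day 30 (7.03%), DEX against TAA at day 7 (6.28%), the days in BSS (7.1%) and the change of the TAA effect (5.83%). The 95% intervals show how precisely each difference in signal was estimated. Saturation cannot be read from centred values, so the intervals do not bound differences in the amount of transcript. Of the 36 intervals of members in the 4 comparisons of a drug with BSS, 31 lay wholly within 0.5 of 0 on the log2 scale. For all probe sets the share with such an interval was 78.9% and 76.7% for DEX and TAA at day 7, and 66.7% and 72.2% at day 30. Between the drugs 8 of the 9 members had such an interval at day 7, against 73.9% of all, and 6 at day 30, against 64.1%. Cnga1 was bounded most closely, with 95% intervals that stayed between -0.25 and 0.22 (0.843-fold to 1.16-fold) in all 4 comparisons. The 3 biological replicates are described as such in the labels, which do not say whether a replicate is 1 eye or several, and their number limits the precision of each value.

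**Figure D2:**
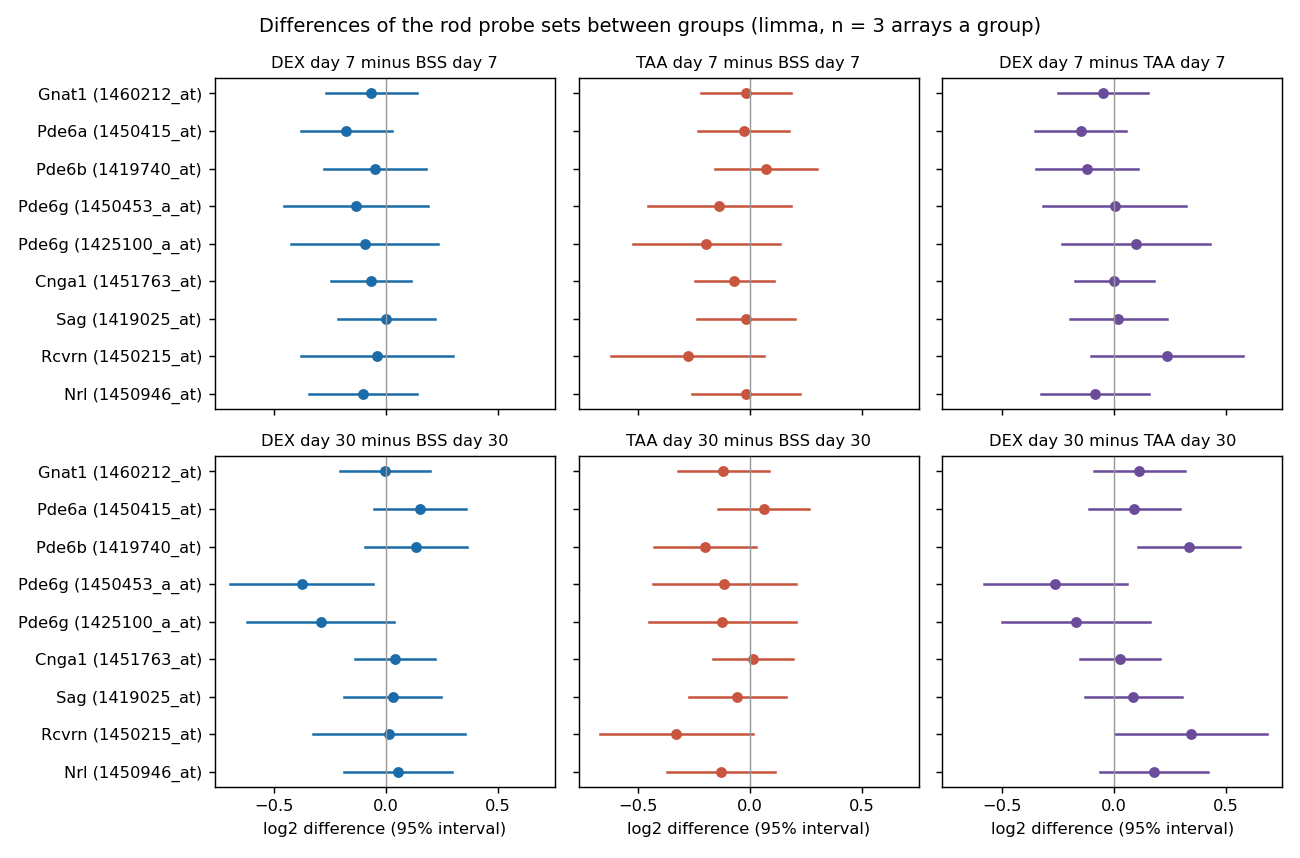
Log2 difference of each probe set in 6 comparisons (horizontal axis; points are differences between means of 3 arrays, lines their 95% intervals from limma). Of these intervals only 1 Pde6g probe set in DEX against BSS at day 30, and Pde6b and Rcvrn in DEX against TAA at day 30, lie wholly on one side of 0, and none passed after adjustment.

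Dexamethasone at day 7 was compared with BSS at day 7 to ask whether the drug changed the rod genes early. In 8 of the 9 probe sets the difference was below 0, and Sag alone was above it, against 48.6% of all probe sets above 0. The lowest was that of Pde6a, the alpha catalytic subunit of the rod phosphodiesterase, whose values were -0.18, -0.23 and -0.31 after DEX and -0.10, -0.06 and -0.03 after BSS. All 3 DEX arrays thus lay below all 3 BSS arrays. The difference was -0.18 ± 0.10 (standard error, n = 3 and 3; 95% interval -0.38 to 0.03; unadjusted p = 0.0841 by limma, not passing after adjustment).

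Nrl, the rod-determining leucine zipper factor, was at -0.13, -0.13 and -0.09 after DEX and -0.05, -0.01 and 0.01 after BSS at day 7. Its groups did not overlap either, and its difference was -0.10 ± 0.11. Gnat1, the alpha subunit of rod transducin, lay between -0.06 and -0.03 after DEX and between -0.01 and 0.07 after BSS, with a difference of -0.07 ± 0.10. In all, the groups did not overlap, with DEX lower, for 5 of the 9 probe sets (Gnat1, Pde6a, both of Pde6g and Nrl), against 7.08% of all probe sets, and for 0 with DEX higher, against 7.35%. Probe sets of 1 array share its RNA and are not independent of each other, and none of the 5 had an unadjusted p under 0.05. The median difference over the 9 probe sets was -0.07, against -0.00415 over all. Ribosomal protein genes lay the same way: 11 of 12 were below 0 in the difference (median -0.11), with means of -0.06, -0.06 and -0.11 on the DEX arrays and 0.04, 0.02 and 0.04 on the BSS arrays, and their part in the rod values was not tested.

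Genes of other cell types also differed on the same arrays, though none of their probe sets passed. The mean of 13 measured reactive gliosis genes was 0.67, 0.69 and 0.44 after DEX and -0.11, -0.59 and -0.26 after BSS at day 7, with 13 of 13 above 0 in the difference and a median of 0.82. The mean of 12 Müller glia genes was 0.23, 0.11 and 0.12 against 0.01, -0.19 and -0.12 (10 of 12 above 0), and that of 10 bipolar cell genes was 0.18, 0.11 and 0.04 against -0.02, -0.12 and -0.14 (9 of 10 above 0). All 14 microglia and leukocyte genes were above 0 in the difference (median 0.47). Below 0 were 9 of 11 cone genes (median -0.10), 12 of 15 pigment epithelium genes (median -0.54) and 13 of 14 lens genes (median -0.62). Single arrays of the groups overlapped in these lists. The mean of the microglia and leukocyte genes was 0.66, 0.63 and 0.12 after DEX and 0.02, -0.18 and 0.26 after BSS. That of the pigment epithelium genes was -0.27, -0.50 and 0.24 against 0.36, 0.07 and 0.20. That of the lens genes was -0.02, -1.14 and -1.41 against 0.20, -0.32 and 0.01. The part of these genes in the rod values was not tested. In whole retina, fewer rods and less RNA per rod cannot be told apart.

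Triamcinolone at day 7 was compared with the same BSS arrays. The lowest difference was that of Rcvrn, the calcium sensor of the cascade, which was at -0.23, -0.42 and -0.17 after TAA and 0.07, 0.01 and -0.06 after BSS. The 3 TAA arrays lay below the 3 BSS arrays, and the difference was -0.28 ± 0.16 (95% interval -0.62 to 0.06, 0.825-fold) (unadjusted p = 0.102 by limma, not passing after adjustment). It was -0.20 without TAA day 7 replicate 2, the array with the lowest value. The gliosis genes were above the BSS mean in 13 of 13 (median 1.25), bipolar cell genes in 9 of 10 (median 0.21) and cone genes in 2 of 11 (median -0.12), and their part in the Rcvrn value was not tested. Rcvrn was the single member whose groups did not overlap with TAA lower, against 5.5% of all probe sets, and 0 members lay wholly higher, against 4.48%. By sign 1 of the 9 was above 0, against 49.1%.

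The inhibitory subunit gene Pde6g differed between its TAA arrays at day 7 more than any other member. On its probe set of wider spread the 3 arrays were at 0.02, -0.46 and 0.17, against 0.02, 0.06 and 0.06 after BSS, and the second probe set gave 0.00, -0.42 and 0.08. Only replicate 2 was low, and the difference of -0.14 ± 0.15 turned to 0.05 without it. On the same array the 11 measured cone genes averaged -0.37, the 14 other rod cascade genes -0.24, the 13 outer segment and retinoid genes -0.21, the gliosis genes 1.94 and the Müller glia genes 0.56. The part of these in the low Pde6g value was not tested. The other 6 probe sets (Gnat1, Pde6a, Pde6b, Cnga1, Sag and Nrl, 1 each) differed from BSS by -0.07 to 0.07.

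At day 30 dexamethasone was compared with BSS to ask what remained late. The lowest difference was that of Pde6g and the highest were those of the catalytic subunit genes Pde6a and Pde6b, none of them passing after adjustment. Pde6g was at -0.23, -0.39 and -0.31 after DEX on its probe set of wider spread, and at 0.17, -0.15 and 0.17 after BSS. On the second probe set it was at -0.21, -0.36 and -0.17 after DEX and at 0.17, -0.12 and 0.10 after BSS. On both, each DEX array lay below each BSS array.

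The Pde6g difference was -0.38 ± 0.15 (95% interval -0.70 to -0.06, 0.77-fold; unadjusted p = 0.0236 and adjusted p = 0.381 by limma) on the first probe set and -0.29 ± 0.16 (95% interval -0.62 to 0.04; adjusted p = 0.464) on the second. The 2 probe sets measure the same gene (r = 0.939 over the 18 arrays) and are not independent evidence. Left out in turn, each of the 6 arrays gave a difference between -0.48 and -0.32, and the adjusted p ran from 0.0465 to 0.953 over 13 alternatives. The lowest came with arrays weighted by how closely they follow their own group, which called 1 of the 9 member probe sets and 14.9% of all. Groups that did not overlap, with DEX lower, were found for 2 of the 9 probe sets, both of Pde6g, against 9.28% of all, and with DEX higher for 0, against 5.26%. By sign 6 of the 9 were above 0, against 44.9%. Relative to the other arrays, 13 of the 15 outside the group lay above all 3 DEX day 30 arrays, and the exceptions were TAA day 7 replicate 2 and TAA day 30 replicate 2. This was counted for Pde6g as the member of lowest difference, and the share of all probe sets alike in this was not counted.

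Pde6a was at 0.19, 0.20 and 0.03 after DEX at day 30 and 0.02, -0.11 and 0.05 after BSS, a difference of 0.15 ± 0.10. Pde6b, the beta catalytic subunit, was at 0.17, 0.22 and -0.06 against -0.07, 0.05 and -0.03, a difference of 0.13 ± 0.11 (0.08 without DEX replicate 2 and 0.22 without replicate 3). In both genes replicates 1 and 2 after DEX were above every BSS array and replicate 3 was not. The holoenzyme has an alpha, a beta and a pair of gamma subunits, so the subunits were also set against each other within each array, a measure chosen after the values were seen and therefore not tested. The value of Pde6g minus the mean of Pde6a and Pde6b was -0.41, -0.60 and -0.30 after DEX at day 30 (mean -0.44 ± 0.15, SD, n = 3). In the other groups its mean lay between -0.09 and 0.08, and 14 of the 15 arrays were above all 3 DEX day 30 arrays, the exception being TAA day 7 replicate 2 at -0.50. The measure sets the member of lowest DEX difference at day 30 against the 2 of highest, so low values there follow from the choice. How often other sets of genes separate the arrays in this way was not counted. The values are relative to the median array, so they do not give the ratio of the transcripts.

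**Figure D3:**
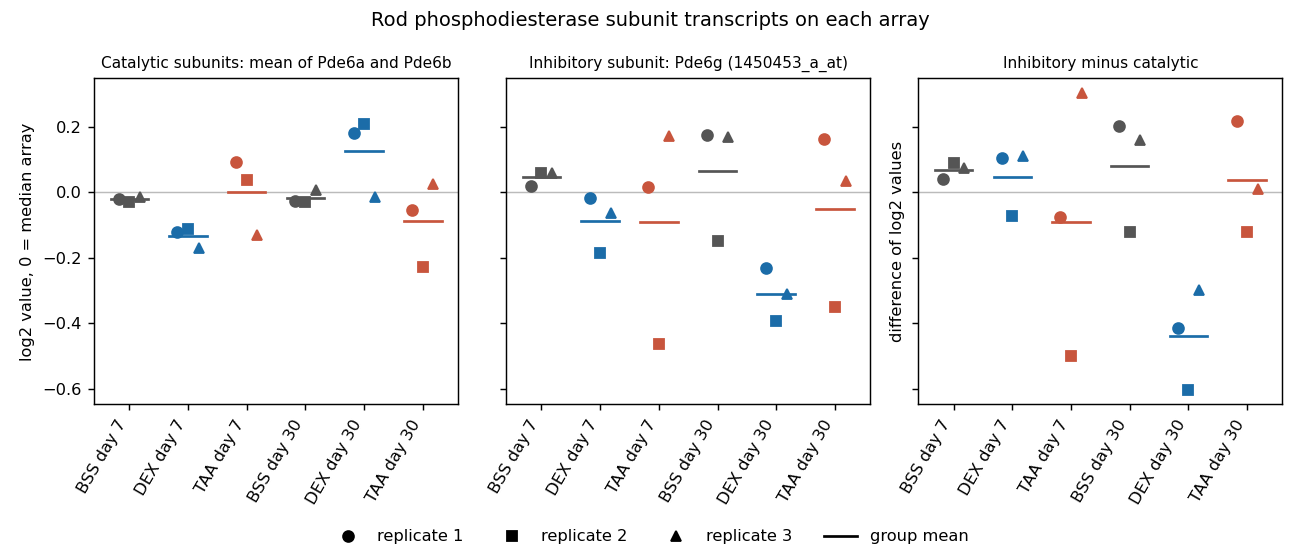
Log2 values of the rod phosphodiesterase subunit genes on each array (vertical axes, 0 the median array), by group, with the mean of Pde6a and Pde6b at left, Pde6g in the middle and their difference at right; symbols mark replicates and bars the mean of 3 arrays. The difference lies between -0.60 and -0.30 on the 3 DEX day 30 arrays and at -0.12 or higher on every other array but TAA day 7 replicate 2. This measure was chosen after the values were seen.

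The DEX day 30 arrays also spread more widely over all probe sets than the BSS day 30 arrays, with standard deviations of 0.265, 0.296 and 0.212 against 0.163, 0.194 and 0.205. Replicates 1 and 2 had low means of the gliosis genes (-0.94 and -0.84, with 0.28 on replicate 3) and of the microglia and leukocyte genes (-0.54 and -0.64, with 0.19 on replicate 3). BSS day 30 ranged from -0.93 to 0.26 and from -0.62 to 0.60 in these lists. In the difference all 14 microglia and leukocyte genes were below 0 (median -0.48), as were all 14 lens genes (median -1.65), whose mean was -1.38, -0.06 and 0.50 after DEX and 1.69, -0.13 and 2.32 after BSS. The part of these in the phosphodiesterase values was not tested. The other 5 genes were near their BSS values: Nrl at 0.05 ± 0.11, Cnga1 at 0.04 ± 0.08, Sag at 0.03 ± 0.10, Rcvrn at 0.01 ± 0.16 and Gnat1 at -0.01 ± 0.10. The 3 Gnat1 values after DEX all lay within 0.01 of the median array.

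Triamcinolone at day 30 was compared with BSS at day 30, and 7 of the 9 differences were below 0 and 2 above, against 45.4% above 0 among all probe sets (median -0.12, against -0.02 over all). Without TAA day 30 replicate 2 those of Gnat1, Pde6g, Sag and Nrl turned to or above 0, and those of Rcvrn and Pde6b shrank. Rcvrn was at 0.15, -0.79 and -0.14 after TAA and 0.15, 0.05 and 0.01 after BSS, so the groups overlapped. Its difference of -0.33 ± 0.16 (adjusted p = 0.723 by limma) became -0.06 without that array and -0.53 without TAA day 30 replicate 1. Pde6b was at -0.15, -0.47 and -0.05, a difference of -0.20 ± 0.11, or -0.08 without the array, and Gnat1 and Nrl turned from -0.12 and -0.13 to 0.00233 and 0.03. Without it the median over the 9 probe sets was 0.03, and 7 of the 9 were above 0. The groups did not overlap for 0 of the 9 probe sets, against 7.11% with TAA lower and 5.88% with TAA higher among all.

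The 2 drugs, both synthetic glucocorticoids, were also compared with each other at matched days, and whether the doses matched is not given. At day 7 the differences of DEX minus TAA ran from -0.15 (Pde6a) to 0.24 (Rcvrn), and all 95% intervals included 0 and lay between -0.35 and 0.58. By sign 5 of the 9 were above 0, against 50.2% of all. The Pde6a value was -0.25 without TAA day 7 replicate 3 and turned to 0.011 with weighted arrays. All 14 microglia and leukocyte genes were above 0 (median 0.43), while 11 of 13 gliosis genes (median -0.29) and all 14 lens genes (median -0.59) were below. In each of these lists the array means overlapped between the drugs. The part of these genes in the rod values was not tested. The groups did not overlap for Rcvrn, which was higher after DEX (against 6.99% of all probe sets), and Pde6b, which was lower (against 5.63%). Pde6b was at -0.06, 0.01 and -0.04 after DEX and 0.16, 0.08 and 0.03 after TAA, a difference of -0.12 ± 0.11.

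At day 30 Pde6b was higher after DEX than after TAA, by 0.33 ± 0.11 (95% interval 0.11 to 0.56; unadjusted p = 0.00624, adjusted p = 0.141 by limma). The groups overlapped, since DEX replicate 3 was at -0.06 and TAA replicate 3 at -0.05. The groups did not overlap for 0 of the 9 probe sets, against 5.65% with DEX higher and 8.49% with DEX lower, and by sign 7 of the 9 were above 0, against 48.8%. Without TAA day 30 replicate 2, 4 of the 9 were above 0, and the member median went from 0.09 to -0.00043. Without TAA day 30 replicate 2 the difference was 0.21. Without DEX day 30 replicate 3 it was 0.42 with an adjusted p of 0.0320, in a fit that called 8.01% of all probe sets, and with weighted arrays it was 0.28 with an adjusted p of 0.0442, where 12.5% were called. Over 14 alternatives the adjusted p ran from 0.0320 to 0.554. Rcvrn differed by 0.34 ± 0.16 (adjusted p = 0.293), or 0.08 without TAA day 30 replicate 2 and 0.55 without TAA replicate 1. Pde6g differed by -0.26 ± 0.15, or -0.41 without TAA day 30 replicate 2 and -0.15 without TAA replicate 1. In the same comparison 12 of 14 lens genes (median -1.92) and 10 of 14 microglia and leukocyte genes (median -0.22) were below 0. The lens mean was -1.38, -0.06 and 0.50 after DEX and 0.13, 0.12 and 3.82 after TAA. The microglia and leukocyte mean was -0.54, -0.64 and 0.19 against -0.14, 0.09 and -0.46. The part of these genes in the rod values was not tested. These misses of the threshold do not show that the drugs acted alike on the rod genes.

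Day 30 was also compared with day 7 within BSS eyes. No retina without an injection was measured, so time since the injection cannot be told apart from age or day of collection. Sag, the gene of rod arrestin, had the largest difference in size: 0.08, 0.01 and 0.06 at day 7, and -0.08, -0.14 and -0.08 at day 30. All 3 day 30 arrays lay below all 3 day 7 arrays, which was so for 1 of the 9 probe sets and for 12% of all. The difference was -0.15 ± 0.10 (95% interval -0.37 to 0.06; adjusted p = 0.770 by limma). Over the 3 treatments, the 9 day 7 arrays ran from -0.01 to 0.09, and 8 of the 9 day 30 arrays lay below all of them, with TAA day 30 replicate 3 at 0.02 the exception. This pooled pattern was noticed in the values of the member of largest difference and was not tested. The share of all probe sets alike in this was not counted. In BSS all 14 lens genes were higher at day 30 (median 1.37). Their mean was 1.69, -0.13 and 2.32 at day 30 and 0.20, -0.32 and 0.01 at day 7. The part of these genes in the Sag values was not tested. The other 8 probe sets differed between the days in BSS by -0.08 (Cnga1) to 0.06 (Rcvrn).

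Whether a drug effect differed between day 7 and day 30 was tested as an interaction. For DEX the highest change was in Pde6a, whose difference from BSS went from -0.18 at day 7 to 0.15 at day 30, a change of 0.33 ± 0.14 (unadjusted p = 0.0278, adjusted p = 0.560 by limma), and the lowest was in Pde6g (-0.24 ± 0.21). For TAA the lowest was in Pde6b (-0.27 ± 0.15, adjusted p = 0.869), or -0.15 without TAA day 30 replicate 2.

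Among themselves the 8 genes had a median correlation of 0.377 over their 28 pairs and the 18 arrays, from -0.293 to 0.815. Without TAA day 30 replicate 2 the median was 0.171, and the pairs above 0.5 went from 7 to 1. Nrl, for example, had r = 0.739 with Pde6b, 0.445 with Cnga1 and 0.387 with Sag over 18 arrays, and 0.377, 0.372 and -0.651 over the other 17. The points share their arrays and groups, so these values describe the arrays. Pde6b had r = -0.07 and 0.05 with the Pde6g probe sets over 18 arrays, and -0.544 and -0.667 without that array.

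The genes whose profile was most like the mean of the 8 members, over 18 arrays and 18185 other genes, were Kcnj14 (r = 0.907), Selenok (0.904), Ccdc126 (0.900), Cep19 (0.897), Llgl2 (0.896), Fabp12 (0.885), Rpl22 (0.882), Rnf7 (0.880), Macrod2 (0.879) and Prcd (0.878). On TAA day 30 replicate 2 these 10 genes lay between -1.42 and -0.44. Without that array Kcnj14 had r = 0.836 and Fabp12 0.739, and the others 0.314 to 0.565, and 1 of the 10 was again among the 10 most alike. The most opposed were E2f6 (-0.913), Rdh10 (-0.909), Agpat4 (-0.874), Tmem65 (-0.871) and Pls1 (-0.867), and without the array these were at -0.735 to -0.487.

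The rest of the rod pathway was read from 3 lists. None of their probe sets (23, 17 and 23) passed in any of the 9 comparisons, in either direction. Of the other cascade genes, 14 of 16 listed were measured, and their median differences from BSS were -0.09 after DEX and -0.12 after TAA at day 7, and -0.04 and -0.06 at day 30. Those of smallest p in a comparison with BSS were the pigment kinase gene Grk1, at 0.60 ± 0.24 after DEX at day 7 and -0.65 ± 0.24 after TAA at day 30, and the guanylate cyclase gene Gucy2e, at -0.33 ± 0.12 after TAA at day 7. After DEX at day 30 they were the cyclase activator gene Guca1b (-0.35 ± 0.18) and Rgs9 (-0.44 ± 0.27), which speeds the shut-off of transducin. Single BSS arrays moved both: Guca1b was at -0.23 without BSS day 30 replicate 2, and Rgs9 at -0.16 without replicate 3 and -0.67 without replicate 1. Grk1 after DEX at day 7 was at 0.37 without BSS day 7 replicate 3. Rgs9bp, the anchor of RGS9, was at -0.12 ± 0.10 (-0.07 without DEX day 7 replicate 2) and -0.23 ± 0.10 after DEX and TAA at day 7, and Gnb1, the transducin beta subunit, at -0.57 ± 0.22 after TAA at day 30. Without TAA day 30 replicate 2 Grk1 was at -0.66 and Gnb1 at -0.46 in that comparison.

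Of the outer segment and retinoid genes, 13 of 16 listed were measured. Against BSS, 10 and 9 of the 13 were below 0 after DEX and TAA at day 7 (medians -0.02 and -0.08), and 7 and 10 at day 30 (medians -0.0012 and -0.07). The retinol dehydrogenase gene Rdh12 was at -0.23 ± 0.10 and -0.24 ± 0.10 after DEX and TAA at day 7 and at 0.26 ± 0.10 after TAA at day 30, with a change of the TAA effect between the days of 0.50 ± 0.14 (adjusted p = 0.772 by limma). The microtubule-associated Rp1 was at 0.26 ± 0.12 (0.16 without DEX day 30 replicate 2) and the channel subunit Kcnv2 at 0.18 ± 0.08 after DEX at day 30, and Reep6 at -0.35 ± 0.14 after TAA at day 30 (-0.15 without replicate 2). At day 7 Kcnv2 was at -0.13 ± 0.08 after DEX, and Cdhr1, a cadherin of the outer segment base, at -0.22 ± 0.12 after TAA. All 10 photoreceptor transcription factor genes were measured. Against BSS, 6 and 5 of the 10 were below 0 after DEX and TAA at day 7 (medians -0.0076 and -0.0064), and 4 and 4 at day 30 (medians 0.05 and 0.03). Neurod1 was at 0.44 ± 0.15 and Samd7 at 0.50 ± 0.23 after DEX at day 30, the latter at 0.28 without DEX replicate 2 and 0.76 without replicate 3. Rorb was at -0.48 ± 0.16 and Crx, the partner of NRL, at -0.21 ± 0.11 after TAA at day 30, or -0.44 and -0.15 without replicate 2. At day 7 Mef2d was at -0.38 ± 0.14 and Rorb at 0.25 ± 0.16 after TAA, and Neurod1 at -0.16 ± 0.15 and Esrrb at -0.19 ± 0.22 after DEX. Without TAA day 7 replicate 2 Mef2d was at -0.20 and Rorb at 0.15, and without BSS day 7 replicate 1 Esrrb was at -0.12. Between the drugs at day 30 (DEX minus TAA) the exchanger gene Slc24a1 was at 0.33 ± 0.10, Pdc at 0.26 ± 0.10, Rp1 at 0.37 ± 0.12, Reep6 at 0.38 ± 0.14 and Crx at 0.27 ± 0.11. Without replicate 2 of TAA these were 0.25, 0.20, 0.49, 0.18 and 0.21. Rorb differed by 0.71 ± 0.16 (adjusted p = 0.0918 by limma; 0.67 without that array), the smallest adjusted p among the pathway genes named here.

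**Figure D4:**
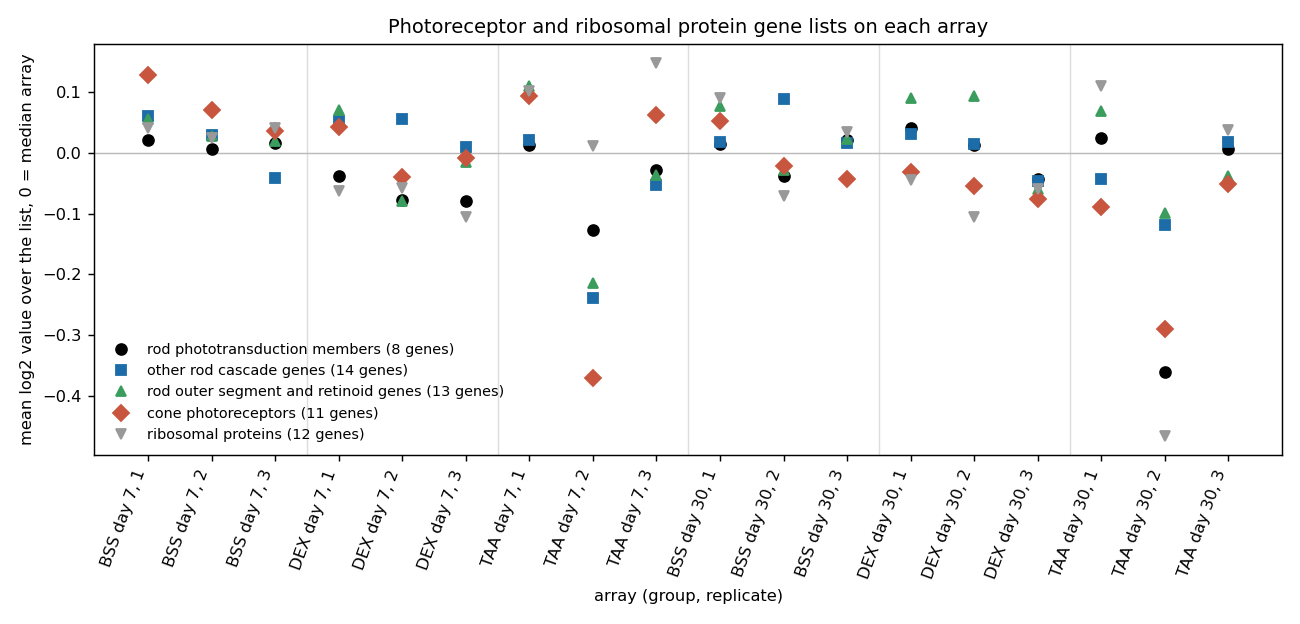
Mean log2 value of 5 gene lists (vertical axis, 0 the median array) on each of the 18 arrays (horizontal axis), 1 point per list and array with no error bar. On TAA day 30 replicate 2 the rod phototransduction members are at -0.36, the cone genes at -0.29 and the ribosomal protein genes at -0.47. The other rod cascade genes are at -0.12 there and the outer segment and retinoid genes at -0.10. On TAA day 7 replicate 2 the cone genes are at -0.37 and the ribosomal protein genes at 0.01.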

How the data were processed

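Retinal RNA was measured on 18 Affymetrix arrays, 1 per sample. The deposited values were made with RMA, per the submitters' processing notes, and are taken as log2 by the convention of that method; its version is not given in the sources used here. The authors' log2 values were centred: the median of each of the 45101 probe sets over the 18 arrays was within 5e-07 of 0. Levels, background and saturation can therefore not be read, and a filter on low values could not be made. Of the probe sets, 34945 named 1 gene in the platform annotation (2016), 932 named several, 9160 none and 64 were controls; only the first were tested.

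Groups came from the sample titles. In R 4.3.3, limma 3.58.1 estimated a mean for every group from the full set of 18 arrays (residual degrees of freedom 12, moderation adding 5.3), two-sided, with Benjamini-Hochberg adjustment over the 34945 probe sets at 0.05, in 9 comparisons. The 4 comparisons of a drug with BSS and the 2 between drugs share arrays. Where a gene had several probe sets, the one with the largest interquartile range stood for it in gene lists and correlations. All members were to be named, with the 2 genes of smallest p per pathway list and comparison where none passed (printed here for each drug against BSS and for the drugs at day 30), the 10 genes most correlated with the members' mean and the 5 most opposed. The members and lists were chosen with earlier results of these data known. Samples with the same replicate number were not treated as pairs. On data simulated for DEX against BSS at day 30 (34945 probe sets), the fit recovered 28.4% of changes of 0.5 and 83.6% of changes of 1 on the log2 scale, and called 0.0132% of unchanged probe sets. The simulated noise was independent between probe sets and arrays, with the same spread on every array. Real arrays differed in spread and had correlated deviations, so these shares need not hold for them. Alternatives were 1 probe set per gene, only the arrays compared, quantile normalization, array weights, a replicate block, an interquartile filter, leaving out suffixed probe sets, robust moderation and leaving out each array. Leaving out the 2 arrays of widest spread together was added after seeing the data.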

Additional observations from a re-analysis of the deposited data

Results flagged for a closer look

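For 2 members all 3 drug arrays lay on one side of the BSS mean at day 7 and all 3 on the other side at day 30. Pde6a was below it after DEX at day 7 and above it at day 30, a change of 0.33 ± 0.14 on the log2 scale (interaction term in limma, unadjusted p = 0.0278, adjusted p = 0.560). Leaving out each array in turn gave 0.28 to 0.38, and over 19 alternatives the adjusted p ran from 0.0608 to 0.933. Pde6b was above the BSS mean after TAA at day 7 and below it at day 30, a change of -0.27 ± 0.15 (limma, unadjusted p = 0.0890, adjusted p = 0.869), and -0.15 without TAA day 30 replicate 2. Neither passed the threshold. The share of all probe sets that crossed the BSS mean between the days in this way was not counted. Whether 2 members is more than among other probe sets can therefore not be told.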

How the results depend on the processing

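Over 72 differences of members and 1072 values under alternatives, 997 kept their sign, 75 turned, 15 of these where a value exceeded its standard error, and 3 had an adjusted p under 0.05. With array weights 1 member probe set was called for DEX against BSS at day 30 (Pde6g, -0.36) and 1 for DEX against TAA at day 30 (Pde6b, 0.28); without DEX day 30 replicate 3 it was again 1 in the latter (Pde6b, 0.42; leaving out single arrays gave 0 to 1). The same weights turned Pde6a (0.011) and Pde6g (-0.20) in DEX against TAA at day 7 and Sag (0.11) in the change of the TAA effect. The interquartile filter left 2 member probe sets, both of Pde6g, so the member median was that of 1 gene and became -0.17 for TAA at day 7, -0.33 for DEX at day 30, -0.22 for DEX against TAA at day 30 and -0.22 for the change of the DEX effect.

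Leaving out single arrays gave a member median of -0.22 to 0.035 for TAA at day 30 and of -0.12 to 0.11 for the change of the TAA effect, each highest without TAA day 30 replicate 2. For TAA against BSS at day 30 it gave Sag -0.14 to 0.086, Nrl -0.23 to 0.026 and Gnat1 -0.19 to 0.0023. It gave Gnat1 -0.0080 to 0.18 for DEX against TAA at day 30, Pde6g -0.18 to 0.13 for DEX against TAA at day 7, and Rcvrn -0.26 to 0.22 for the change of the TAA effect. Without both arrays of widest spread the median was 0.035 for TAA at day 30, with Sag at 0.086, Nrl at 0.026 and Gnat1 at 0.0023, while Gnat1 was at -0.0080 for DEX against TAA at day 30, Pde6g at -0.18 for DEX against TAA at day 7 and Sag at 0.13 for the change of the TAA effect. The cause of these changes was not tested.

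Counts over all probe sets moved most with array weights, to 55 and 83 for DEX and TAA at day 7, 5200 and 1 at day 30, 1172 and 4356 between drugs, 658 between days and 3311 and 19 for the changes of effect. Without DEX day 30 replicate 3 they were 1856 (DEX at day 30) and 2798 (DEX against TAA at day 30). Quantile normalization called 54 between days, and the arrays compared alone called 12 for the change of the DEX effect. Same-numbered arrays of different groups had a median correlation of 0.046 (-0.24 to 0.49, with 16 of 45 over 0.1). Arrays of other numbers in different groups had a median of -0.013 (-0.57 to 0.43, with 19 of 90 over 0.1). Of the 18 arrays, 10 were closest to their own number. The labels do not say what the numbers stand for, so they were not taken as pairs, and a shared block remains possible. With the replicate block 0 members were called, the smallest adjusted p of a member was 0.151, and all probe sets called became 0 for TAA at day 7 and 1 at day 30. Under the block the Pde6g difference for DEX against BSS at day 30 was -0.38 ± 0.12 (unadjusted p = 0.00581, adjusted p = 0.291 by limma). Its standard error was 0.15 without the block. No filter on low levels was run, since centred values hold no level; 3 arrays a group limit the precision.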
